A study of Mus musculus with 18 samples.

Results

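The transcripts of 10 receptor genes for colony-stimulating factors and other cytokines were followed in monocytes sorted from mouse spleens: Csf1r, Csf2ra, Csf2rb, Csf2rb2, Flt3, Il4ra, Il10ra, Il6ra, Tgfbr1 and Tgfbr2. The genes were chosen by name, as the rows of the count table with these symbols, and they make up 10 of 55416 genes in the table and 10 of the 17040 genes that passed the filter on low counts. The samples came from 6 groups of 3 mice, all labelled day 3. Wild-type mice (WT, C57BL/6), mice without Dectin-1 (labelled Dectin-1-/-) and mice without the Fc gamma receptor IIb (labelled FcgRIIb-/-) had each received phosphate-buffered saline (PBS) or intravenous immunoglobulin (IVIg), a preparation of pooled immunoglobulin G used to treat autoimmune disease. Clec7a is the gene of Dectin-1, a lectin that binds beta-glucans, and Fcgr2b that of FcgRIIb, which holds back cells that bind immune complexes. The markers used for the sort, the dose of IVIg, and the age, sex and construction of the strains are not given in the labels. The series asks how both receptors affect the monocytes after IVIg.

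Monocytes and the macrophages they give rise to depend on colony-stimulating factor 1, which acts through the receptor tyrosine kinase Csf1r, while the related kinase Flt3 marks progenitors and dendritic cells. Granulocyte-macrophage colony-stimulating factor binds Csf2ra together with a signalling beta chain, and the chains for interleukins 4, 10 and 6 likewise pair with shared partners and signal through JAK kinases and STAT factors. Transforming growth factor beta binds Tgfbr2, which then activates Tgfbr1 and through it the SMAD proteins, a pathway with a calming effect on many myeloid cells.

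Total counts lay between 16996494 and 48958909 in 17 libraries, while FcgRIIb knockout PBS replicate 2 held only 719494. In that library 3 counts equal 4.24 CPM (counts scaled by library size, as cpm in edgeR gives them), and the receptors there rest on 33 counts (Il4ra) to 1009 counts (Csf1r). WT PBS replicate 3 and WT IVIg replicate 1 differ in treatment but were the most alike of 153 pairs of libraries (Spearman correlation 0.988). Clec7a lay at 0.247 to 4.05 CPM in the Dectin-1 knockout libraries and at 360 to 956 CPM elsewhere. Fcgr2b lay at 130 to 250 CPM in the FcgRIIb knockout libraries and at 208 to 318 CPM elsewhere, and since the deleted part of the gene is not given, reads outside it make this a weak check of the label. Markers shared by monocytes summed to between 19162 and 42908 CPM over 8 genes, and Lyz2 was the most abundant transcript in all 18 libraries. Some markers of other cells were low, with medians of 0.352 CPM for Cd3e (T cells), 0.356 CPM for Ncr1 (NK cells), 0.732 CPM for Siglech (plasmacytoid dendritic cells) and 0.884 CPM for Xcr1 (conventional dendritic cells), and others in such lists were not. Medians were 310 CPM for Ighm (B cells), 210 for Cd209a and 90.7 for Dpp4 (conventional dendritic cells), 88.4 for Bst2 (plasmacytoid dendritic cells) and 14.7 for Cd4 (T cells). Neutrophil markers (10 genes) summed to 691 and 1570 CPM in Dectin-1 knockout IVIg replicates 1 and 2 and to at most 299 CPM in the other libraries. Libraries also differed in whether long or short genes were counted more, which is called the length tilt here: the Spearman correlation, over 5288 abundant genes, of a gene's log2 deviation from the mean library with its exon length. The tilt ran from -0.65 in FcgRIIb knockout PBS replicate 3 to 0.62 in WT IVIg replicate 1. Codes in the sample titles have no stated meaning, and 3 of them are shared by 2 libraries each. Of these pairs 2 lie within a group, Dectin-1 knockout PBS replicates 2 and 3 and FcgRIIb knockout PBS replicates 1 and 2.

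Among these genes are a pair of near-copies that bear on how their counts can be read. Csf2rb encodes the common beta chain used by the receptors for granulocyte-macrophage colony-stimulating factor, interleukin 3 and interleukin 5, and Csf2rb2 encodes a mouse-specific beta chain for interleukin 3. They lie next to each other on chromosome 15, Csf2rb at 78209952 to 78238047 on the plus strand and Csf2rb2 at 78166707 to 78189921 on the minus strand (GRCm39). Their coding sequences of 2691 and 2637 bases, taken from the GENCODE transcripts of GRCm38, were identical at 95.2% of 2631 aligned positions without a gap. The first 120 coding bases are shown because they hold both kinds of stretch that a read can fall on, with the 4 differing bases in capitals.
Csf2rb: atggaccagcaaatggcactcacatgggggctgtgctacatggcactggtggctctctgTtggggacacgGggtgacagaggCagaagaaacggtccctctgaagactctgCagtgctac
Csf2rb2: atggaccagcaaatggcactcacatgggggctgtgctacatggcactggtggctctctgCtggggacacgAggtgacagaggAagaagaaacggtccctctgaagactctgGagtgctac
The longest stretch without any difference, bases 2083 to 2324 of both coding sequences, ran over 242 bases and is shown because a read pair that lies wholly inside it fits both genes.
Csf2rb and Csf2rb2: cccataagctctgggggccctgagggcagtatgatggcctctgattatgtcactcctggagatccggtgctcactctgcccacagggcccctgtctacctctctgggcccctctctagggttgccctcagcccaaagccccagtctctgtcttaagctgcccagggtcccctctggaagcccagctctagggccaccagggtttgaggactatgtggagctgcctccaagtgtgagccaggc
Of all windows of 50 bases in the Csf2rb coding sequence, 26.0% were also in that of Csf2rb2, and of windows of 100 bases 11% were. The deposited counts took primary alignments, so read pairs that fit both genes were placed at 1 of them. How many pairs that concerns was not measured, since the mate of a read can tell the genes apart and exons outside the coding sequence were not compared. The ratio of Csf2rb2 to Csf2rb, each per kilobase of exon, stayed between 0.221 and 0.350 in the 17 deep libraries and was 0.727 in the shallow one.

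Csf1r was the most abundant of the 10 receptors in every deep library and Il10ra the second. To compare genes, levels were divided by exon length, as CPM per kilobase. In the WT PBS group Csf1r stood at 439 ± 37.4 (SD, n = 3) CPM per kilobase, Il10ra at 126 ± 8.09 and Csf2ra at 63.0 ± 6.46. These first 2 steps of the order were the only ones between neighbours whose libraries did not overlap in WT PBS, and they held in 17 of 17 deep libraries. Below them came Il6ra (53.8 ± 13.9), Csf2rb (51.7 ± 19.8) and Tgfbr1 (42.8 ± 8.85 CPM per kilobase), whose ranges ran into each other. The lowest in WT PBS were Il4ra (24.6 ± 11.9), Tgfbr2 (22.3 ± 1.94), Flt3 (19.9 ± 5.71) and Csf2rb2 (16.0 ± 5.79 CPM per kilobase), again with overlapping libraries. Over the 17 deep libraries the order of the middle genes changed to Tgfbr1 (43.4 ± 10.9), Csf2rb (41.9 ± 11.5) and Il6ra (41.6 ± 15.5 CPM per kilobase), so their ranks are not resolved. The signalling partner chains were present too, with medians of 298 CPM for Il13ra1, 186 for Il6st, 173 for Il2rg and 112 for Il10rb.

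**Figure D1:**
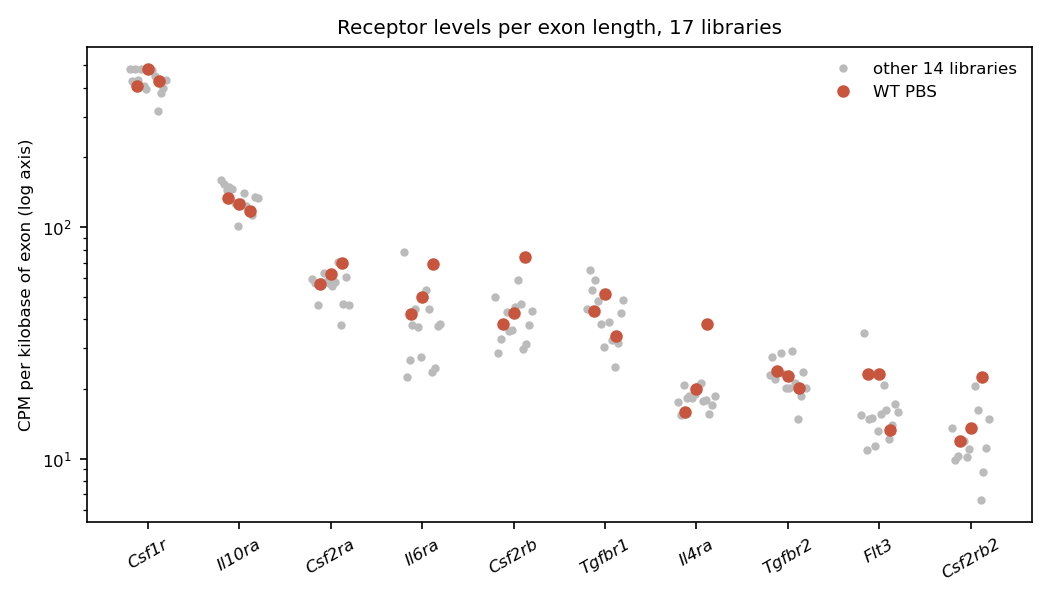
Each point is 1 of the 17 deep libraries, with the receptor genes along the horizontal axis and CPM per kilobase of exon on a log vertical axis; red points are the 3 WT PBS libraries. Csf1r (mean 433) and Il10ra (mean 133) stand above all others in each library, and the remaining genes overlap with their neighbours.

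Of both growth factor receptor kinases, Csf1r (chromosome 18) was the steadier in level and Flt3 (chromosome 5, 147267551 to 147337299, minus strand) had no steady level within groups. Csf1r lay at 2360, 2777 and 2473 CPM in the 3 WT PBS libraries, and at 2772, 2476 and 2771 CPM with IVIg. The Dectin-1 knockout libraries fell in the same range, at 2481, 2795 and 2348 CPM with PBS and at 2278, 2743 and 2750 CPM with IVIg. In the FcgRIIb knockout it lay at 2603, 1425 and 1837 CPM with PBS and at 2189, 2314 and 2486 CPM with IVIg. The lowest 2 values of all 18 are FcgRIIb knockout PBS libraries, the shallow one and replicate 3, while replicate 1 of that group lies inside the WT range. The difference from WT with PBS was -0.37 ± 0.22 (log2 fold change ± SE), edgeR adjusted p = 0.559, and ran from -0.63 without replicate 1 of the knockout group to -0.19 without the shallow library. In bulk samples such as these, fewer cells of a type and less RNA per cell cannot be told apart.

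Flt3 lay at 143, 143 and 82.1 CPM in WT PBS libraries and at 95.2, 216 and 67.3 CPM with IVIg, which spans both the highest and nearly the lowest value of the series within 1 group. With PBS it lay at 92.3, 92.9 and 69.6 CPM in the Dectin-1 knockout and at 101, 64.9 and 75.0 CPM in the FcgRIIb knockout. Values with IVIg were 80.8, 96.3 and 128 CPM in the Dectin-1 knockout and 86.2, 106 and 97.9 CPM in the FcgRIIb knockout. Both knockouts thus had group means below WT with PBS (84.9 ± 13.3 and 80.2 ± 18.5 against 123 ± 35.3 CPM), but WT PBS replicate 3 lies within either knockout group. The log2 differences were -0.53 ± 0.33 (edgeR adjusted p = 0.909) and -0.54 ± 0.35 (adjusted p = 0.578). With IVIg they were -0.31 ± 0.33 and -0.38 ± 0.33, and 0.33 and 0.25 without WT IVIg replicate 2. Flt3 is also expressed by conventional dendritic cells, and the 9 other markers of these cells summed to 343 to 366 CPM in WT PBS, 239 to 346 CPM in Dectin-1 knockout PBS and 513 to 644 CPM in FcgRIIb knockout PBS. Of these 9 markers Cd207 was at 0 in 15 of 18 libraries, Itgae in 4, and Xcr1 and Zbtb46 in 1 each. The part of these cells in the Flt3 values was not tested.

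For the granulocyte-macrophage colony-stimulating factor receptor, the ligand-binding chain Csf2ra (chromosome 19, 61212395 to 61216867, minus strand) varied less within groups than both beta chains, whose highest values came from 1 library. Csf2ra lay at 163, 179 and 200 CPM in WT PBS and at 172, 165 and 133 CPM in WT IVIg libraries. The 6 Dectin-1 knockout libraries all lay between 160 and 183 CPM. In the FcgRIIb knockout it lay at 202, 107 and 108 CPM with PBS and at 133, 175 and 133 CPM with IVIg, so that group holds the highest and the lowest value of all. Its log2 difference from WT with PBS was -0.31 ± 0.23 (edgeR adjusted p = 0.612), and -0.75 or -0.09 with FcgRIIb knockout PBS replicate 1 or replicate 3 left out.

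Csf2rb lay at 278, 309 and 542 CPM in the WT PBS libraries and at 362, 207 and 239 CPM in the WT IVIg libraries. With PBS it lay at 277, 313 and 259 CPM in the Dectin-1 knockout and at 337, 134 and 217 CPM in the FcgRIIb knockout. With IVIg the values were 262, 328 and 432 CPM in the Dectin-1 knockout and 227, 273 and 317 CPM in the FcgRIIb knockout. WT PBS replicate 3 is the highest of all 18 and stands well above its own group, and the 6 groups overlap one another. IVIg in WT gave a log2 difference of -0.48 ± 0.30 (270 ± 81.9 against 376 ± 144 CPM, edgeR adjusted p = 1.0), -0.12 without that library and -0.75 without WT IVIg replicate 1. Against WT with PBS the Dectin-1 knockout gave -0.41 ± 0.30 (adjusted p = 0.909) and the FcgRIIb knockout -0.63 ± 0.31 (adjusted p = 0.522), which became -0.05 and -0.27 without it. The latter was -0.99 without FcgRIIb knockout PBS replicate 1.

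Csf2rb2 lay at 56.3, 63.8 and 107 CPM in the WT PBS libraries and at 64.6, 46.7 and 48.7 CPM in the WT IVIg libraries. In the Dectin-1 knockout it lay at 55.7, 56.3 and 48.4 CPM with PBS and at 52.3, 63.5 and 97.9 CPM with IVIg. In the FcgRIIb knockout the values were 77.0, 63.5 and 31.3 CPM with PBS and 41.6, 52.4 and 69.9 CPM with IVIg. The same library, WT PBS replicate 3, is the highest for this gene as well. Dectin-1 knockout PBS libraries lay below all WT PBS libraries, though the nearest values both round to 56.3 CPM, with a log2 difference of -0.50 ± 0.31 (edgeR adjusted p = 0.909) and -0.17 without WT PBS replicate 3. IVIg in WT gave -0.51 ± 0.31 (adjusted p = 1.0), and -0.17 without that library. The FcgRIIb knockout with PBS gave -0.45 ± 0.34 (adjusted p = 0.624), which ran from -1.07 without its replicate 1 to -0.04 without its replicate 3.

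Il4ra (chromosome 7, 125151292 to 125178646, plus strand), a chain of the receptors for interleukins 4 and 13, lay between 92.6 and 128 CPM in all libraries but WT PBS replicate 3 and the shallow one. It lay at 95.2, 119 and 229 CPM in WT PBS and at 105, 92.6 and 125 CPM in WT IVIg libraries. The Dectin-1 knockout had 110, 112 and 109 CPM with PBS and 114, 124 and 128 CPM with IVIg, without overlap between both but only 0.15 ± 0.26 apart on the log2 scale. The FcgRIIb knockout had 107, 46.6 and 107 CPM with PBS, the low value being the shallow library with 33 counts, and 93.5, 102 and 113 CPM with IVIg. Against WT with PBS the FcgRIIb knockout was lower by a log2 difference of -0.61 ± 0.28 (95% interval -1.19 to -0.03, unadjusted p = 0.0412, edgeR adjusted p = 0.516). That difference ran from -0.85 without WT PBS replicate 1 to -0.14 without WT PBS replicate 3. IVIg in WT gave -0.46 ± 0.26 (adjusted p = 1.0) and the Dectin-1 knockout with PBS -0.42 ± 0.26 (adjusted p = 0.909), and without the same library they were 0.00 and 0.04.

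Il10ra (chromosome 9, 45165135 to 45180447, minus strand), which binds interleukin 10, a cytokine that restrains macrophages, had the smallest spread within groups of the 10 genes over the 17 deep libraries (SD of log2 CPM 0.14), but not with the shallow library (0.26). It lay at 467, 442 and 411 CPM in WT PBS libraries and at 560, 537 and 509 CPM in WT IVIg libraries, so that each IVIg library was above each PBS library. Of all genes 6.33% had WT groups without overlap in this comparison, in either direction. The difference of Il10ra was 0.28 ± 0.21 on the log2 scale (535 ± 25.6 against 440 ± 28.3 CPM, edgeR adjusted p = 1.0) and lay between 0.24 and 0.33 with any 1 library left out. It was 0.17 with WT PBS replicate 3 and WT IVIg replicate 1 left out together. In the Dectin-1 knockout Il10ra lay at 520, 511 and 446 CPM with PBS and at 354, 448 and 494 CPM with IVIg, and in the FcgRIIb knockout at 434, 220 and 414 CPM and at 397, 471 and 469 CPM. WT IVIg thus had the highest mean, and with IVIg both knockouts lay below it without overlap. The same held for 3.7% of all genes in the Dectin-1 knockout and 4.55% in the FcgRIIb knockout. The log2 differences of Il10ra were -0.31 ± 0.21 in the Dectin-1 knockout (adjusted p = 1.0) and -0.26 ± 0.21 in the FcgRIIb knockout (adjusted p = 0.938). The 12 markers of non-classical monocytes summed to 4613 to 6825 CPM in WT PBS and to 7587 to 10391 CPM in WT IVIg libraries. With IVIg 12 of 12 were higher, 9 of them at an unadjusted edgeR p under 0.05, and none was called. Of all genes 48.7% were lower in that comparison and 2.52% had an unadjusted p under 0.05. None of these markers was at 0 in any library. With PBS they summed to 7015 to 7906 CPM in the Dectin-1 knockout, and with IVIg to 5576 to 8117 CPM there and to 6030 to 7303 CPM in the FcgRIIb knockout. The part of this marker shift in the Il10ra values was not tested.

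Il6ra (chromosome 3, 89771366 to 89820503, minus strand), the binding chain for interleukin 6, varied most between mice of 1 group. It lay at 366, 431 and 599 CPM in WT PBS libraries and at 673, 195 and 230 CPM in WT IVIg libraries, which hold both the highest and the lowest value of the series. The Dectin-1 knockout had 327, 384 and 320 CPM with PBS and 236, 432 and 463 CPM with IVIg. The FcgRIIb knockout had 383, 263 and 205 CPM with PBS and 212, 322 and 330 CPM with IVIg. WT PBS replicate 3 and WT IVIg replicate 1, the most alike pair of libraries by Spearman correlation, are the highest of all. The groups overlap in each of the 7 comparisons between groups. IVIg in WT gave a log2 difference of -0.35 ± 0.38 (edgeR adjusted p = 1.0), which ran from -1.13 without WT IVIg replicate 1 to -0.04 without replicate 2 of that group. Against WT with PBS the Dectin-1 knockout gave -0.44 ± 0.38 (adjusted p = 0.909) and the FcgRIIb knockout -0.70 ± 0.39 (adjusted p = 0.549). Without WT PBS replicate 3 these were -0.21 and -0.48, and without FcgRIIb knockout PBS replicate 1 the latter was -1.05.

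Of the receptors for transforming growth factor beta, Tgfbr1 (chromosome 4, 47353222 to 47414931, plus strand) lay lowest in the FcgRIIb knockout with PBS, and Tgfbr2 (chromosome 9, 115913361 to 116004428, minus strand) stayed within 121 to 239 CPM throughout. Tgfbr1 lay at 283, 336 and 221 CPM in WT PBS, 288, 427 and 350 CPM in WT IVIg, and 212, 199 and 162 CPM in FcgRIIb knockout PBS libraries. The FcgRIIb knockout PBS libraries lay below all WT PBS libraries, the nearest values being 212 and 221 CPM. The log2 difference was -0.56 ± 0.26 (191 ± 25.9 against 280 ± 57.8 CPM, 95% interval -1.09 to -0.02, unadjusted p = 0.0418, edgeR adjusted p = 0.516), and between -0.71 and -0.41 with any 1 library left out. FcgRIIb knockout IVIg libraries were at 206, 278 and 317 CPM, a log2 difference of 0.49 ± 0.26 from their PBS group (adjusted p = 1.0) with overlap. In the Dectin-1 knockout Tgfbr1 lay at 387, 315 and 249 CPM with PBS and at 198, 332 and 256 CPM with IVIg, overlapping in turn. Against WT with IVIg the Dectin-1 knockout gave -0.44 ± 0.24 (adjusted p = 1.0) and the FcgRIIb knockout -0.41 ± 0.24 (adjusted p = 0.932).

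Tgfbr2 lay at 196, 186 and 165 CPM in WT PBS and at 188, 226 and 181 CPM in WT IVIg libraries. With PBS it lay at 198, 235 and 189 CPM in the Dectin-1 knockout and at 173, 145 and 121 CPM in the FcgRIIb knockout. With IVIg it lay at 165, 165 and 239 CPM in the Dectin-1 knockout and at 153, 193 and 164 CPM in the FcgRIIb knockout. All of these groups overlap with WT PBS, FcgRIIb knockout PBS only through its replicate 1. There the log2 difference was -0.31 ± 0.21 (edgeR adjusted p = 0.587) and ran from -0.51 to -0.16 with 1 library left out.

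**Figure D2:**
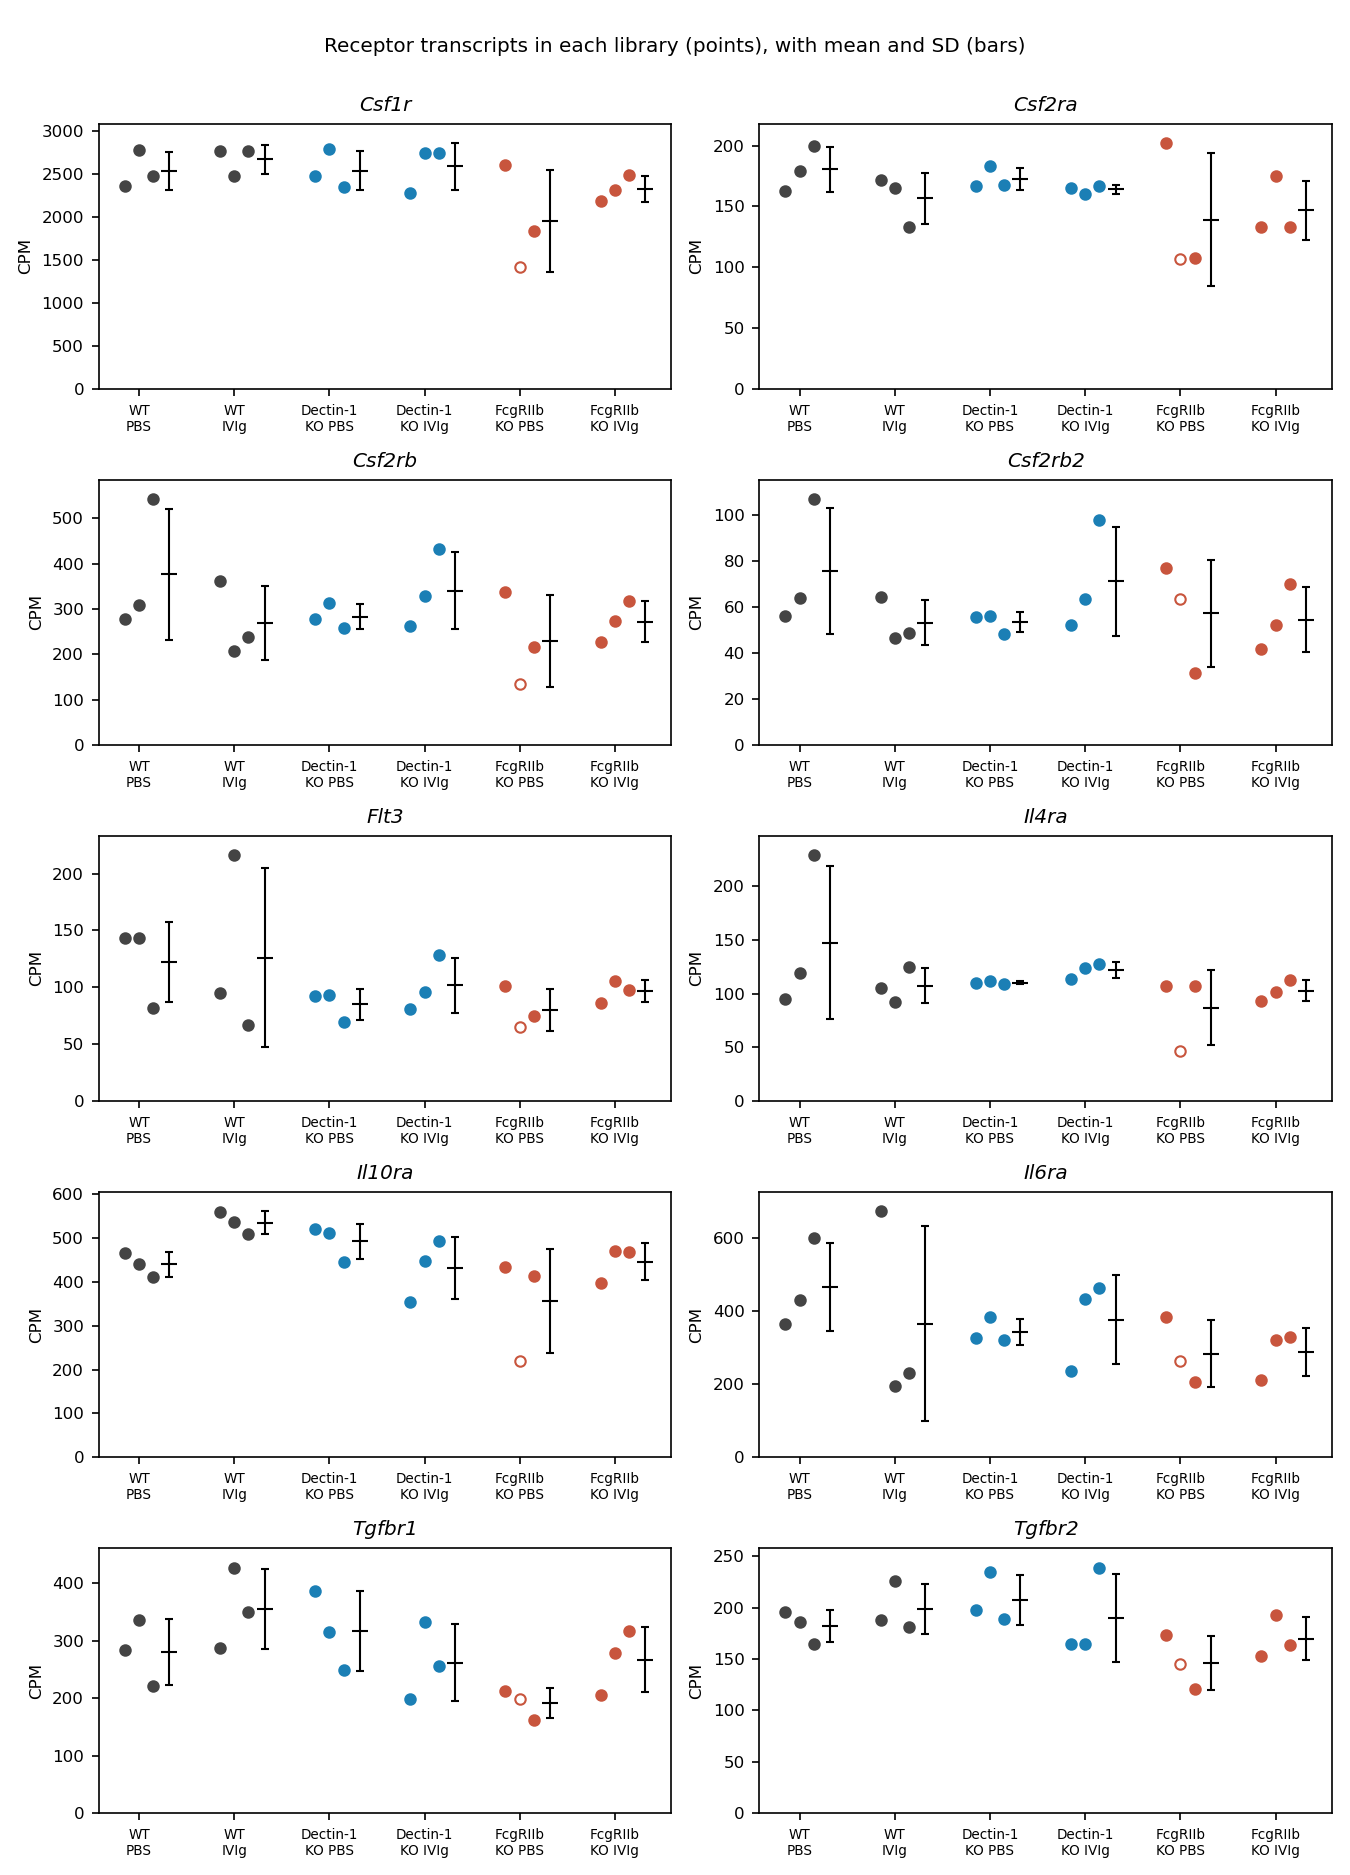
Each panel is 1 receptor gene, with CPM on a vertical axis that starts at 0 and the 6 groups along the horizontal axis; points are libraries in replicate order, the open point is the shallow FcgRIIb knockout PBS replicate 2, and bars are the mean and SD of 3 libraries. Csf1r and Il10ra vary little within most groups, but not in FcgRIIb knockout PBS (1425 to 2603 and 220 to 434 CPM). WT PBS replicate 3 stands apart for Csf2rb (542 CPM), Csf2rb2 (107 CPM) and Il4ra (229 CPM), and WT IVIg holds the widest ranges of Flt3 and Il6ra.

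No receptor differed after IVIg at an adjusted p under 0.05 in any genotype, and the values do not move one way. In WT 5 of the 10 were higher and 5 lower with IVIg, with a median log2 difference of -0.08 (-0.51 to 0.34) beside 0.01 over all genes tested, of which 48.7% were lower. There edgeR called 0 receptors and 0.00587% of all genes, and at an unadjusted p under 0.05 it had 0 receptors and 2.52% of all genes. Il10ra was the 1 receptor whose WT groups did not overlap, as did 6.33% of all genes. In the Dectin-1 knockout 6 were higher and 4 lower (median 0.08, range -0.27 to 0.42, all genes 0.02, 46.9% of them lower), edgeR called 0 of them and 0% of all genes, and 0 receptors against 3.26% of all genes had an unadjusted p under 0.05. Il4ra did not overlap there, as did 8.8% of all genes. In the FcgRIIb knockout 9 were higher and 1 lower (median 0.18, range -0.01 to 0.49, all genes 0.01, 48.7% of them lower), with 0 receptors and 0% of all genes called, 0 receptors and 3.19% of all genes at an unadjusted p under 0.05, and 0 receptors and 7.04% of all genes without overlap. Averaged over the genotypes, with 9 libraries in each arm, the receptors lay between -0.09 (Csf2ra) and 0.19 (Tgfbr1), with standard errors of 0.12 to 0.22, and edgeR called 0 of 10 and 0% of all genes (45.5% were lower), with 0 receptors and 2.31% of all genes at an unadjusted p under 0.05. The 95% intervals of that average were narrowest for Csf1r (-0.15 to 0.38), Csf2ra (-0.35 to 0.17), Il10ra (-0.13 to 0.37) and Tgfbr2 (-0.17 to 0.32), and widest for Il6ra (-0.53 to 0.40).

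Against WT with PBS the FcgRIIb knockout had lower values of all 10 receptors, none of them called. The median log2 difference was -0.50 (-0.70 for Il6ra to -0.25 for Il10ra), beside -0.05 over all genes, of which 53.1% were lower. edgeR called 0 receptors and 0% of all genes, and at an unadjusted p under 0.05 it had 2 receptors, Il4ra and Tgfbr1, against 9.65% of all genes. Tgfbr1 was the 1 receptor without overlap, as were 11.6% of all genes, 7.95% in the direction of lower values. The sign was negative for all 10 in all 29 other settings tried, but Il4ra came to 0.00 after rounding with 3 libraries left out together (WT PBS replicate 3, WT IVIg replicate 1 and the shallow library), where Csf2rb was at -0.08. The receptors are measured in the same 6 libraries and are not independent of one another. The length tilt of these libraries was 0.17, 0.00 and -0.65 in the FcgRIIb knockout and 0.27, 0.41 and 0.57 in WT. Each knockout library thus lay below each WT library in tilt as well. With each library's length trend removed, the difference was -0.44 for Il6ra, -0.40 for Csf2rb, -0.40 for Tgfbr1, -0.41 for Flt3, -0.44 for Il4ra, -0.26 for Csf1r and -0.07 for Tgfbr2, all closer to 0. It was -0.50 for Csf2ra, farther from 0, and -0.44 for Csf2rb2. The value of Il10ra with the trend removed is not given here. Conventional dendritic cell markers summed to 513 to 644 CPM in the FcgRIIb knockout against 343 to 366 CPM in WT, with 5 of 8 tested markers higher and a median log2 difference of 0.08. Classical monocyte markers summed to 13039 to 14322 against 12180 to 20104 CPM, with 6 of 10 higher (median 0.38, 2 at an unadjusted p under 0.05). Non-classical markers summed to 4227 to 5803 against 4613 to 6825 CPM, with 6 higher and 6 lower (median 0.06). None of these markers was called by edgeR, and their part in the lower receptor values was not tested. With IVIg 2 receptors were higher and 8 lower (median -0.21, range -0.41 to 0.04, all genes -0.02, 51.7% of them lower), with 0 receptors and 0.0117% of all genes called by edgeR, 0 and 5.44% at an unadjusted p under 0.05, and Il10ra as the 1 receptor without overlap beside 10.3% of all genes, 4.55% in that direction. The PBS and IVIg comparisons share no library.

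The Dectin-1 knockout differed from WT in no receptor at an adjusted p under 0.05. With PBS 4 were higher and 6 lower (median -0.24, range -0.53 to 0.18, all genes -0.02, 52.1% of them lower), edgeR called 0 of them and 0.0411% of all genes, and 0 receptors against 4.05% of all genes had an unadjusted p under 0.05. Lower values were those of Csf2ra, both beta chains, Flt3, Il4ra and Il6ra, and higher ones those of Il10ra, Tgfbr1 and Tgfbr2, while Csf1r differed by 0.00 ± 0.22. Csf2rb2 was the 1 receptor without overlap, as were 16.3% of all genes, 8.4% in that direction. With IVIg 5 were higher and 5 lower (median 0.00, range -0.44 to 0.43, all genes -0.02, 52.7% of them lower), with 0 receptors and 0.0528% of all genes called, 0 and 3.45% at an unadjusted p under 0.05, and Il10ra as the 1 receptor without overlap, as were 6.22% of all genes, 3.7% in that direction. Both PBS comparisons and the IVIg effect in WT share the 3 WT PBS libraries, so WT PBS replicate 3 enters all of them.

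**Figure D3:**
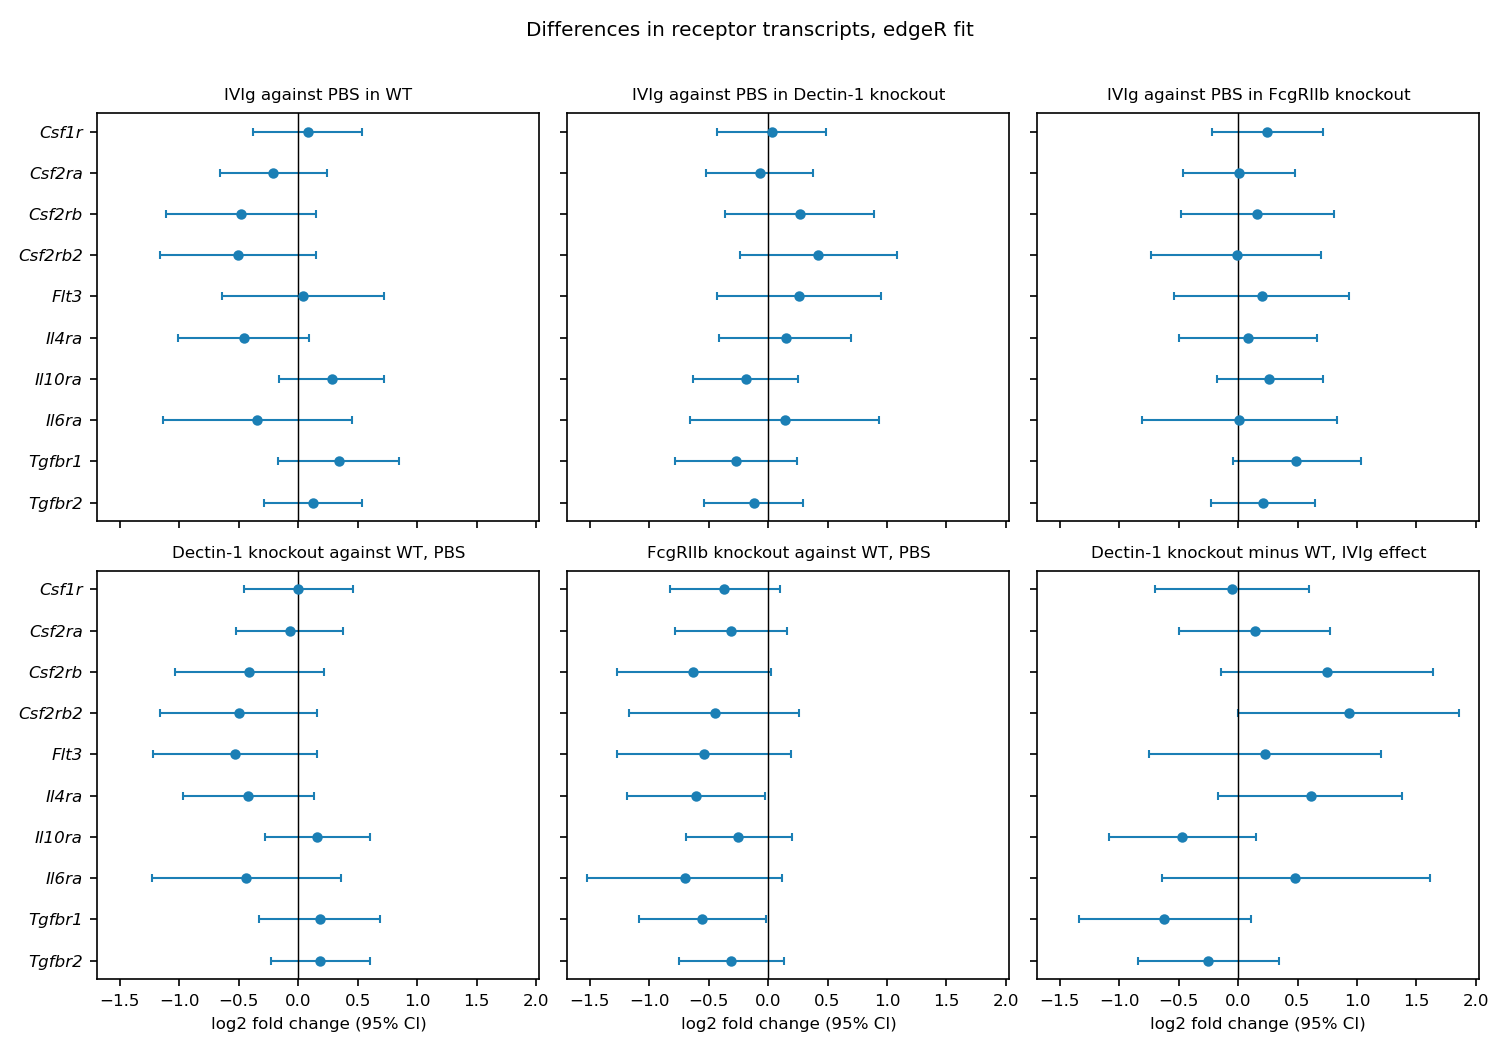
Points are log2 fold changes from the edgeR fit and bars their 95% confidence intervals, 1 panel for each of 6 comparisons, with a vertical line at 0. Except for 2, the intervals reach 0: in the FcgRIIb knockout with PBS all 10 points lie left of it, and the intervals of Il4ra and Tgfbr1 end at -0.03 and -0.02.

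Whether the receptors answered IVIg differently in a knockout than in WT was tested as a difference of both effects. For the Dectin-1 knockout the beta chains had the largest values, 0.93 ± 0.44 for Csf2rb2 (unadjusted p = 0.0504, edgeR adjusted p = 0.998) and 0.75 ± 0.42 for Csf2rb (adjusted p = 0.998). They lay lower with IVIg than with PBS in WT and higher in the knockout. With 1 library left out they ran from 0.59 to 1.1 and from 0.39 to 1.02, both lowest without WT PBS replicate 3. Il4ra (0.61 ± 0.37) was also higher and Tgfbr1 (-0.62 ± 0.34) and Il10ra (-0.47 ± 0.30) lower, all at an adjusted p of 0.998, and Il4ra was at 0.14 without WT PBS replicate 3. Il6ra had 0.48 ± 0.54, which ran from 0.18 without WT IVIg replicate 2 to 1.27 without WT IVIg replicate 1. edgeR called 0 of 10 receptors and 0% of all genes, with a median of 0.18 over the receptors (6 higher, 4 lower, 50% of all genes lower) and 0 receptors and 3.75% of all genes at an unadjusted p under 0.05. For the FcgRIIb knockout 9 of 10 had a higher effect than WT (median 0.19, range -0.02 to 0.64, all genes 0.01, 49.3% of them lower), with Csf2rb at 0.64 ± 0.43 (0.28 to 1.01 with 1 library left out) and Il4ra at 0.54 ± 0.38 (0.07 to 0.78; edgeR adjusted p = 1.0 for both), and 0 receptors and 0% of all genes were called, with 0 and 2.86% at an unadjusted p under 0.05. The 9 of 10 for the FcgRIIb knockout rest on the same PBS libraries as its IVIg effect and its PBS comparison with WT. Those counts are therefore not separate results. DESeq2 and limma voom called 0 of the 10 receptors in all 10 comparisons as well.

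The spread between mice of a group differed between the receptors. Over the 17 deep libraries the SD of log2 CPM within groups was 0.14 for Il10ra and 0.16 for Csf1r, below that of most of the 3823 genes of at least 50 CPM (10.2% and 14.8% of them were lower), whose median was 0.26. It was 0.22 for Tgfbr2, 0.24 for Csf2ra, 0.30 for Il4ra, 0.32 for Tgfbr1, 0.37 for Csf2rb, 0.45 for Csf2rb2, 0.47 for Flt3 and 0.56 for Il6ra, which was above 93.0% of these genes. Over all 18 libraries it was 0.26 for Il10ra, 0.40 for Il4ra and 0.43 for Csf2rb, and lowest for Csf1r and Tgfbr2 (0.21 each). Il6ra followed the length tilt of the library: over the 17 deep libraries Pearson's r was 0.92 and Spearman's rho 0.95 (permutation p = 1.00e-05 for both, the smallest that 100000 resamples can give, adjusted over 10 receptors 6.67e-05 and 5.00e-05). It stayed at 0.90 without the 2 libraries farthest from the median tilt and was 0.90 within groups. Csf2rb (r = 0.84, rho = 0.90, 0.80 without the 2, adjusted permutation p = 6.67e-05) and Csf2rb2 (r = 0.82, rho = 0.88, 0.73 without the 2, adjusted p = 6.67e-05) did so as well. Csf1r had r = 0.70 (rho = 0.68, adjusted permutation p = 0.00262, 0.53 without the 2), and Csf2ra r = 0.59 (rho = 0.53, adjusted p = 0.0208), which fell to 0.32 without those 2 libraries and so rests on them. For Flt3 r was 0.30 (adjusted permutation p = 0.254), for Il4ra 0.42 (0.115), for Il10ra 0.39 (0.148, but 0.76 within groups), for Tgfbr1 0.33 (0.209) and for Tgfbr2 0.42 (0.137). By exon length Il6ra has 8642 bases (r = 0.92), Tgfbr2 8187 (r = 0.42) and Csf2rb2 4740 (r = 0.82). The part of exon length in these relations was not tested. The tilt was computed from abundant genes of these same libraries by exon length, so long genes tend to rise with it by construction. These p-values therefore do not show a trait of the receptors. The share of all genes that follow the tilt as closely was not computed. What produced the tilt was not tested.

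**Figure D4:**
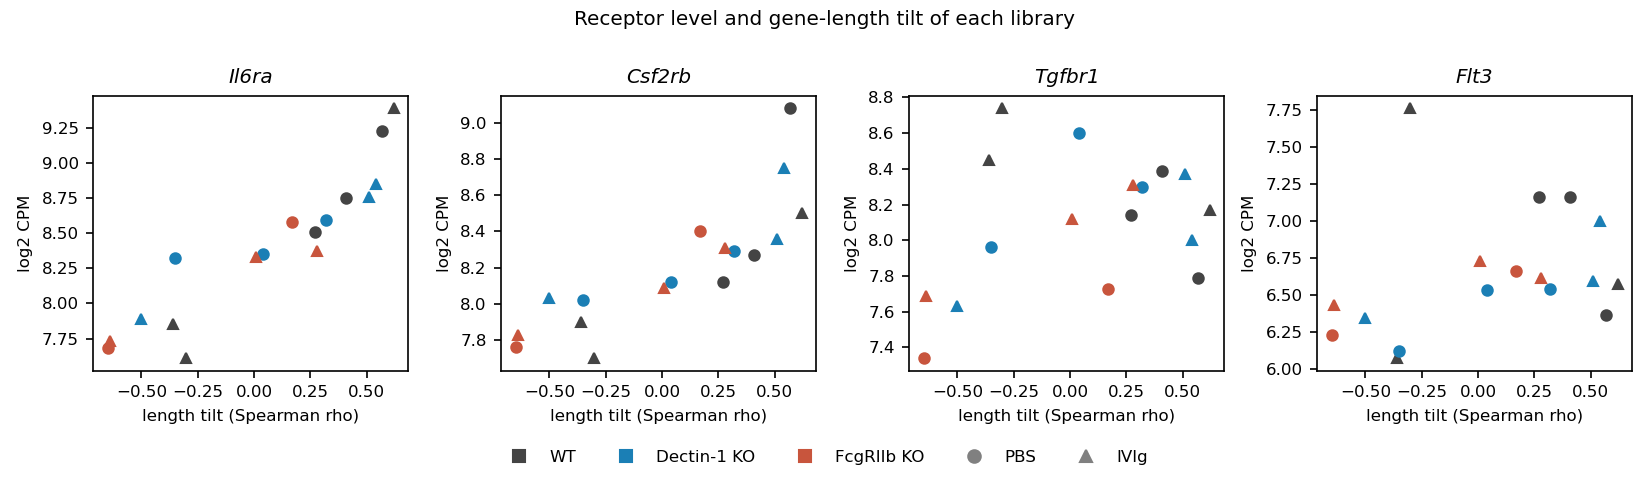
Each point is 1 of the 17 deep libraries, with the length tilt (a Spearman correlation, no unit) on the horizontal axis and log2 CPM of 1 receptor on the vertical axis; colours are genotypes, circles PBS and triangles IVIg. Il6ra (r = 0.92) and Csf2rb (r = 0.84) climb with the tilt across all groups, while Tgfbr1 (r = 0.33) and Flt3 (r = 0.30) scatter.

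Across the same 17 libraries the beta chains varied together with Il6ra, and Il10ra with both receptors for transforming growth factor beta. Of the 45 pairs, 15 had an adjusted permutation p under 0.05 for Pearson's r, all 15 positive. How many pairs among all genes would pass was not computed, so the count says nothing particular to the receptors. By rho only the pairs among Csf2rb, Csf2rb2 and Il6ra and of Il10ra with Tgfbr1 and Tgfbr2 had an adjusted permutation p under 0.05. The closest were both beta chains, Csf2rb and Csf2rb2 (r = 0.93, rho = 0.96, permutation p = 1.00e-05, adjusted 2.25e-04), still at 0.87 without the 2 libraries farthest in Csf2rb and at 0.92 within groups, and they share near-identical sequence as shown above. Csf2rb with Il6ra had r = 0.89 (rho = 0.95, adjusted permutation p = 2.25e-04, 0.93 without the 2, 0.88 within groups) and Csf2rb2 with Il6ra r = 0.79 (rho = 0.89, adjusted p = 0.00255, 0.70 without the 2). These 3 genes are also those with the closest relation to the length tilt. Il10ra varied with Tgfbr1 (r = 0.75, rho = 0.75, permutation p = 6.00e-04, adjusted 0.00675, 0.81 without the 2, 0.64 within groups) and with Tgfbr2 (r = 0.65, rho = 0.72, adjusted p = 0.0232, 0.76 without the 2, 0.64 within groups). Tgfbr1 with Tgfbr2 had r = 0.64 (rho = 0.49, adjusted permutation p = 0.0232) but 0.35 without FcgRIIb knockout PBS replicate 3 and WT IVIg replicate 2, on which it rests. Csf2rb with Il4ra had r = 0.75 (rho = 0.49, adjusted permutation p = 0.00963) but 0.38 without WT PBS replicate 3 and Dectin-1 knockout IVIg replicate 3, on which it rests. Flt3 had no pair with an adjusted p under 0.05, its highest value being 0.54 with Tgfbr2 (adjusted permutation p = 0.0689).

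**Figure D5:**
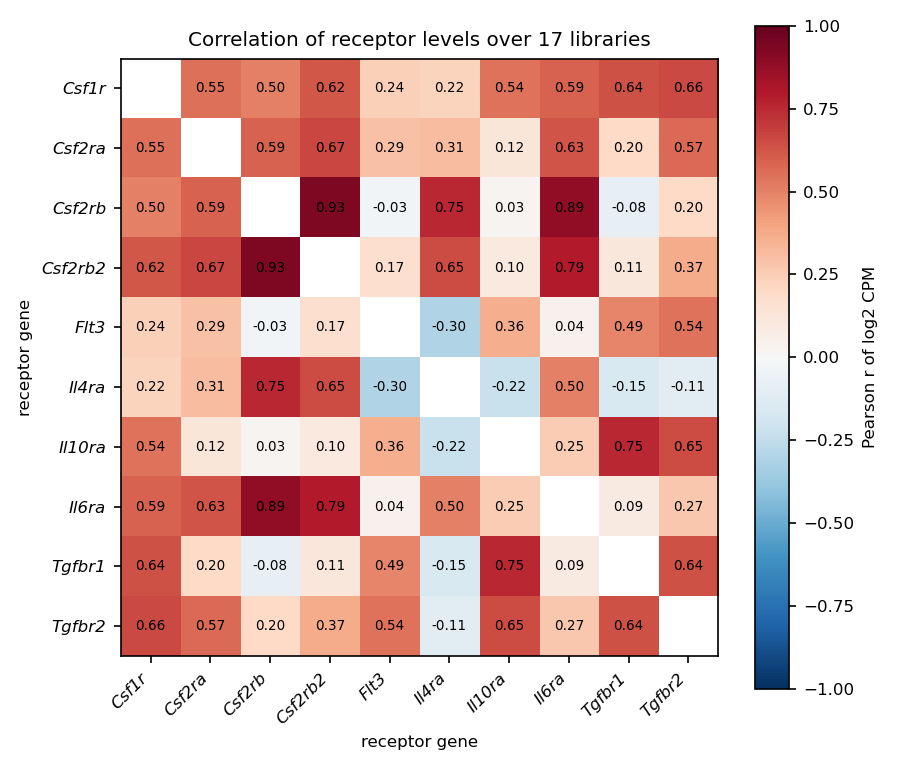
Cells give Pearson's r of log2 CPM for each pair of the 10 receptors (both axes list the genes) over the 17 deep libraries, coloured from -1 (blue) to 1 (red). Csf2rb, Csf2rb2 and Il6ra (0.79 to 0.93) and Il10ra, Tgfbr1 and Tgfbr2 (0.64 to 0.75) are the sets described in the text. Other cells are as dark, such as Csf2rb with Il4ra (0.75), Csf2ra with Csf2rb2 (0.67) and Csf1r with Tgfbr2 (0.66).

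Sequence before the transcription start was looked at for the receptors with a promoter entry. The RefSeq promoter table (GRCm38.p6) matched 7 of the 10 genes and had no entry for Csf1r, Csf2rb and Il10ra. The 250 bases upstream were searched on both strands for GAGGAA (PU.1 and other ETS factors), TTNNGCAA (C/EBP), TTCNNNGAA (STAT) and GGGCGG (GC box). Shown are the promoters of Csf2rb2 (chr15:78305722-78305971, minus strand) and Il6ra (chr3:89913197-89913446, minus strand), which varied together, and of Flt3 (chr5:147400490-147400739, minus strand). The r of Flt3 with Il6ra was 0.04 (rho = 0.27), but 0.48 without WT IVIg replicate 2 and WT PBS replicate 1. Sequences run 5′ to 3′ on the gene's strand, with matches in capitals.
Csf2rb2: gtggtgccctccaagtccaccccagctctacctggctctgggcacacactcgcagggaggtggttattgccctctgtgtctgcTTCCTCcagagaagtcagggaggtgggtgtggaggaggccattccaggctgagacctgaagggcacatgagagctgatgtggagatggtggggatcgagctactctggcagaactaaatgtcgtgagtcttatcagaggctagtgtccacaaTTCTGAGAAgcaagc
Il6ra: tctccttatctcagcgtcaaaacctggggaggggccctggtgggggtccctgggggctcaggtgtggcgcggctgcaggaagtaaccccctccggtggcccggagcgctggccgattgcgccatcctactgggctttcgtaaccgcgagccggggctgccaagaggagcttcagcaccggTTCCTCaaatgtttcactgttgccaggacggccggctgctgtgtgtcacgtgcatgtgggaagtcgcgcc
Flt3: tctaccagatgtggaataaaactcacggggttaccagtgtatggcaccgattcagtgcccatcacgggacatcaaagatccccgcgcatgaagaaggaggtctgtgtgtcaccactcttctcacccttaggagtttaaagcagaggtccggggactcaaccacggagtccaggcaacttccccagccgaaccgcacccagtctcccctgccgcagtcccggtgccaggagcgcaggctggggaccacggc
Csf2rb2 and Il6ra each held 1 GAGGAA match on the opposite strand, a motif found in 23.3% of 32817 promoters, and Csf2rb2 also held 1 TTCNNNGAA match (7.01% of promoters). The Flt3 window held none of these 4 motifs. Of the others, Csf2ra held 2 GAGGAA matches and 1 GGGCGG match (32.7% of promoters), Il4ra 1 GGGCGG match, and Tgfbr2 1 GAGGAA and 1 TTNNGCAA match (9.57% of promoters). The bases after the start of the Tgfbr2 entry were not found in its GENCODE transcripts, unlike those of the other entries. Tgfbr1 has 2 entries, of which 1 held 2 GGGCGG matches and the other 1 GAGGAA match. No matches shared a base with one another in any window, and such matches describe the letters only.

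The genes most like each receptor were found as those with the highest Pearson correlation over the 17 deep libraries among 8636 genes of at least 10 CPM. These correlations are a description only, since the libraries differ in depth and length tilt. For Il6ra they were Hectd4, Phf3 and Utrn (0.98 each), whose exon lengths of 16443, 14190 and 17108 bases exceed its own. Csf2rb was most like Sf1, Cbfa2t3 and Ptprs (0.95 each), and Csf2rb2 most like Csf2rb (0.93), Iqsec2 and Dip2b (0.92 each). Csf1r was nearest to Lysmd4 and Ppp6r3 (0.91 each) and Man1a2 (0.90), and Flt3 to Ddr1 (0.81), Nedd4 (0.79) and Rasgef1b (0.77). Csf2ra was near to Epn1 (0.87) and Tcf3 (0.85), and Il4ra to Bcl3 (0.87), Pim1 (0.84) and Arid5a (0.84). Il10ra was nearest to Etaa1 (0.84), Pcmtd1 (0.83) and Pde4b (0.79). Tgfbr1 was nearest to Tent5a (0.94), Crk (0.92) and Fam126a (0.92), and Tgfbr2 to Atmin (0.87), Rap1gap2 (0.85) and Slc12a2 (0.83).

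Genes around the receptors were described from 6 lists of partner chains, ligands and signalling genes, and edgeR called none of their tested members in any of the 10 comparisons. Of the 14 ligands 5 were tested: Tgfb1 had a median of 474 CPM, Flt3l 6.82 and Csf1 3.87 CPM, while Csf2, Csf3, Il3, Il5 and Il34 were at 0 in all 18 libraries. A count of 0 allows up to 4.24 CPM in the shallow library and 0.0615 to 0.186 CPM in the others. With PBS the FcgRIIb knockout had 19 of 20 JAK-STAT genes lower than WT (median -0.31, 4 at an unadjusted p under 0.05), among them Jak2, the kinase bound by the beta chains (-0.67 ± 0.24, edgeR adjusted p = 0.503), and Cblb, a ubiquitin ligase (-1.34 ± 0.40, adjusted p = 0.503). It also had 12 of 15 feedback genes lower (median -0.55, 2 at an unadjusted p under 0.05), with Spred1 at -0.93 ± 0.26 (adjusted p = 0.475) and Socs3 at -0.93 ± 0.41 (adjusted p = 0.516), the latter at -0.08 without WT PBS replicate 3. Of 12 SMAD pathway genes 8 were lower (median -0.35, 1 at an unadjusted p under 0.05), with Smad3 at -0.71 ± 0.33 (adjusted p = 0.516). Of 12 transcription factors 9 were lower (median -0.44, 4 at an unadjusted p under 0.05), with Maf at -1.12 ± 0.32 (adjusted p = 0.475) and between -1.27 and -1.05 with any 1 library left out. Over all genes tested the median there was -0.05, 53.1% were lower and 9.65% had an unadjusted p under 0.05. The 15 tested partner receptors had 8 lower and 7 higher (median 0.00).

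In the Dectin-1 knockout with PBS all 20 JAK-STAT genes had values below WT but by little (median -0.16, 0 at an unadjusted p under 0.05), beside a median of -0.02 over all genes, of which 52.1% were lower and 4.05% at that p. Feedback genes were lower in 10 of 15 (median -0.20), led by Bcl3 (-1.13 ± 0.41, edgeR adjusted p = 0.909), which was -0.26 without WT PBS replicate 3. Of the partner receptors 10 of 15 were lower (median -0.07), Tgfbr3 was higher by 1.10 ± 0.47 (adjusted p = 0.909), and 7 of 12 SMAD genes (median -0.04) and 7 of 12 transcription factors (median -0.16, 1 at an unadjusted p under 0.05) had lower values. IVIg in WT gave 14 of 15 feedback genes lower values (median -0.45, 2 at an unadjusted p under 0.05, beside 48.7% of all genes lower and 2.52% at that p), with Bcl3 at -1.26 ± 0.41 and Nfil3 at -0.78 ± 0.32 (edgeR adjusted p = 1.0 for both), and these were -0.39 and -0.27 without WT PBS replicate 3. Maf, a transcription factor of macrophages, lay at 21.8 ± 7.92 CPM with IVIg and 49.3 ± 4.42 CPM with PBS in WT (-1.18 ± 0.29, unadjusted p = 5.89e-04, edgeR adjusted p = 1.0), without overlap and between -1.41 and -0.91 with any 1 library left out. Of the JAK-STAT genes 15 of 20 were lower there (median -0.13), of the partner receptors 9 of 15 (median -0.14), of the SMAD genes 7 of 12 (median -0.05) and of the transcription factors 8 of 12 (median -0.13). Of the factors most often tied to these receptors, Spi1, which encodes PU.1, had a median of 643 CPM (range 323 to 781). Irf8 had a median of 362 CPM and a wider range of 52.2 to 596 CPM.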

How the data were processed

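RNA of sorted spleen monocytes was measured by sequencing in 18 libraries, 6 groups of 3. The deposited values are whole-number counts of read pairs per gene, made by the authors with featureCounts 2.0.2 on Ensembl release 104 (GRCm39), counting primary alignments and reads over several genes, with no strand option set, per the file headers. The reads were aligned with STAR, per the submitters' processing notes, and libraries came from a stranded mRNA kit, per the labels' protocols. Exon lengths come from the same table, and 18 further columns of it were not used. Reads of 1492 genes without a symbol made up 0.125% to 0.450% of a library.

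From the counts, edgeR 4.0.16 (R 4.3.3) fitted all 6 groups together with TMM scaling and quasi-likelihood F-tests (12 residual degrees of freedom), after its filter on low counts left 17040 genes. p-values were adjusted by Benjamini and Hochberg over these genes and called under 0.05. Intervals cover 95%. CPM use TMM-scaled totals, and log2 CPM a prior count of 2. The groups come from the labels and the 3 independent mice of each from the series' design text. Title codes shared by libraries have no stated meaning and were not used. Correlations used 17 libraries, with 100000 permutations, two-sided (scipy 1.17.1). Coding sequences were compared with biopython 1.88. The fit was tested on simulated data. Alternatives were DESeq2 1.42.0, limma 3.58.1 (voom), other scalings, filters and fits, a length correction and each library left out. 1 more, which leaves out 3 libraries together, was chosen after seeing the data.

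Receptors are named throughout. Their fold changes are printed mainly where the log2 value was at least 0.3 in size or the groups did not overlap, and of the 6 pathway lists, where none was called, up to 2 genes of each by smallest unadjusted p. Partner chains, ligands, Spi1 and Irf8 are named for their levels only, outside that rule. The 3 genes nearest each receptor were taken by Pearson correlation among genes of at least 10 CPM. Some genes that these rules name are not reported here. The receptors and all lists, 11 of them of cell type markers, were chosen with earlier results of these data known. Of the marker lists not given elsewhere, sums over all libraries were 208 to 459 CPM for B cells, 11.3 to 73.5 for T cells, 0 to 23.2 for NK cells, 156 to 270 for plasmacytoid dendritic cells, 620 to 873 for red pulp macrophages and 4.67 to 48.9 for erythroid cells.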

Additional observations from a re-analysis of the deposited data

How the results depend on the processing

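The count of receptors called was 0 in each of the 10 comparisons and in all 29 other settings. Of 1218 recomputed log2 fold changes of receptors 1204 kept their direction and 14 did not, and of 951 for other named genes 950 did and 1 did not. In WT the IVIg difference of Il4ra ran from -0.70 to 0.00 with 1 library left out and was 0.02 with 3 out (WT PBS replicate 3, WT IVIg replicate 1 and the shallow library). For the Dectin-1 knockout with PBS Il4ra ran from -0.66 to 0.04, with 0.02 for the first 2 of these out and 0.04 for all 3 out. With IVIg Flt3 ran from -0.62 to 0.33 in the Dectin-1 knockout (voom 0.11) and from -0.71 to 0.25 in the FcgRIIb knockout (voom 0.05). Il6ra in the FcgRIIb knockout with IVIg ran from -0.65 to 0.44 (voom 0.30, 0.44 with 2 out, 0.44 with 3 out). The FcgRIIb difference in IVIg effect of Il4ra was -0.08, and Socs3 in that knockout with PBS 0.07, with 3 out. The cause was not tested.

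Over all genes edgeR called 1, 0 and 0 for IVIg in WT, the Dectin-1 knockout and the FcgRIIb knockout, against 1, 2 and 13 in DESeq2, and up to 13 in the Dectin-1 knockout without its IVIg replicate 3. With PBS it called 7 for the Dectin-1 knockout (5 to 16 over edgeR settings, DESeq2 14, voom 12) and 0 for the FcgRIIb knockout (up to 40 without its replicate 1, voom 0). DESeq2 called 175 there, with Spred1 (adjusted p = 0.0474) and Maf (adjusted p = 0.0420) but no receptor. With IVIg the counts were 9 (5 to 28, DESeq2 23, voom 11) and 2 (0 to 6, DESeq2 3, voom 1). No paired analysis was possible because the labels give no replicate numbers, and those used here follow the order of the samples only. The fit on the compared groups alone gives no value for the average over genotypes. The shallow library limits the precision of the FcgRIIb knockout with PBS. Shared sequence may limit the values of Csf2rb and Csf2rb2, to an extent that was not measured.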
